A study of Mus musculus with 4 samples.

Results

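The matrilins Matn1, Matn2, Matn3 and Matn4, the cartilage oligomeric matrix protein gene Comp, and the matrix Gla protein genes Ucma and Mgp were examined in mouse articular cartilage, 7 genes of the 24532 in the gene table. The genes were taken by symbol, and this family was chosen by measured values of the same libraries, namely the opposite injury changes of Matn1 at the 2 ages and the first rank of Mgp in young cartilage, which are therefore given as a description. RNA sequencing was done on wild-type C57BL/6 cartilage in 4 groups, sham and injured at each of a young and an adult age, with 1 library per group. The young mice were 3 weeks old, and the adult mice are labelled as 12 weeks in the titles but as 14 weeks in the characteristics, both above the age that the study's methods give. Injured cartilage was taken at day 3 after a needle injury through the full thickness of the femoral groove cartilage of the knee; the labels of the same samples name DMM surgery, and the label of the adult sham library gives day 3 to day 14. Each library was made from 1 pool of male mice, with more mice pooled for injured than for sham cartilage, so no difference below has a replicate check, and no SD or p-value can be given.

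Matrilins are secreted adaptor proteins that join into oligomers and link collagen fibrils, aggrecan and other matrix molecules. Matn1 and Matn3 are largely restricted to cartilage and are abundant in epiphyseal and growth plate cartilage, whereas Matn2 and Matn4 are made in many connective tissues. COMP, a member of the thrombospondin family, binds collagens and matrilins and is found in load-bearing cartilage, tendon and ligament. MGP and UCMA are small secreted proteins whose glutamate residues are carboxylated in a vitamin K-dependent step. MGP is an inhibitor of calcification in cartilage and arteries, and UCMA takes its name from the upper zone of the growth plate.

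Levels are in FPKM, which divides the fragments of a gene by its transcript length and by the size of the library, so that levels can be set side by side between genes. All 7 genes were above 1 FPKM in every library. Together they contributed 3.13% (sham) and 3.97% (injured) of all FPKM at the young age and 2.78% and 1.73% at the adult age. Mgp and Comp accounted for most of this. The levels ran from 1.48 FPKM for Matn3 in adult injured cartilage to 17434 FPKM for Mgp in young injured cartilage. The most frequent low value of FPKM times transcript length was taken as the step of 1 fragment. Only 43.0% to 45.5% of the low values lay within 0.1 of a whole step, and those that set the step are among them. The step is therefore an assumption. Under it the libraries held about 25600000 to 30800000 fragments. The lowest value of the family, Matn3 in adult injured cartilage, then rested on about 110 fragments. Because fragments could not be recovered as whole numbers, counting error is left out.

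**Figure D1:**
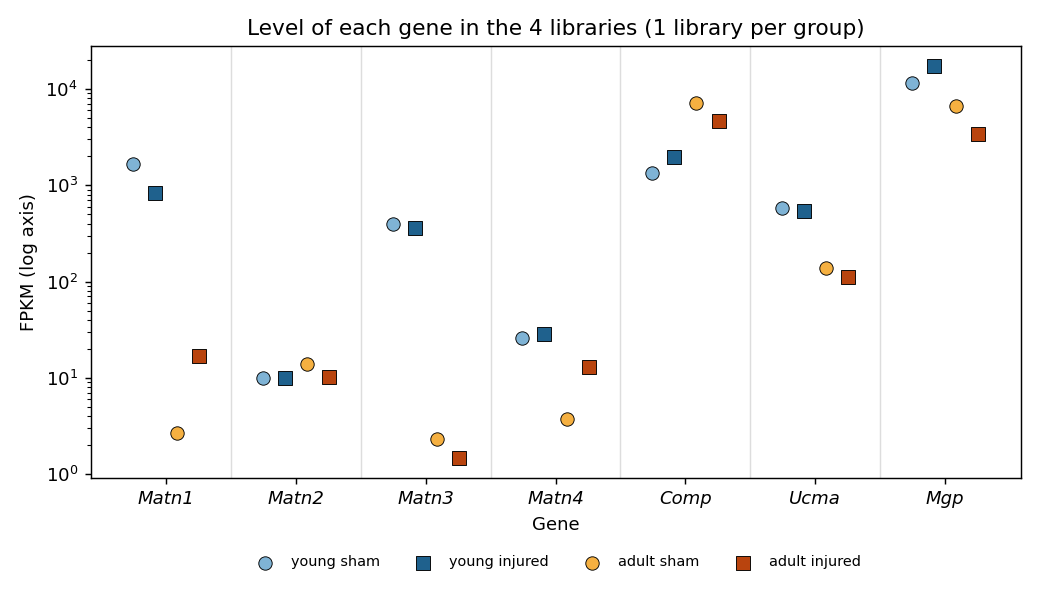
Level of each gene in FPKM, on a log axis, in the 4 libraries (light circles, sham; dark squares, injured; blue, young; orange and brown, adult). Matn1 and Matn3 sit at 355.8 FPKM or more in both young libraries and at 16.8 FPKM or less in both adult libraries. Comp is higher in adult than in young cartilage, both sham and injured.

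Each change is the log2 ratio of FPKM + 1 between libraries, called at 2-fold or more, which is a log2 ratio of 1. Adding 1 FPKM makes ratios of weakly expressed genes too small. Of 18181 genes above 0 in at least 1 library, 4.57% were called higher and 1.27% lower in young injured against young sham cartilage, and 6.90% higher and 1.46% lower in adult injured against adult sham cartilage. In adult against young sham cartilage 2.66% were higher and 10.6% lower, and in adult against young injured cartilage 1.80% were higher and 3.09% lower. The libraries differed in general level. The 10891 genes that reached 1 FPKM in each library had median log2 ratios of −0.04 (young injury), 0.23 (adult injury), −0.30 (age, sham) and −0.07 (age, injured). Median-of-ratios scaling, in which every library is divided by its median ratio to a common reference, brought the 0.23 to −0.06 and the −0.30 to 0.07. It moved the share of called genes that were higher from 82.5% to 60.4% for injury in adult mice and from 20.02% to 53.3% for adult against young sham cartilage. On the TPM scale, where the FPKM of each library are rescaled to the same sum, this share moved from 36.9% to 50.2% for adult against young injured cartilage. In the same order of the 4 comparisons, quantile normalization gave shares of 73.1%, 59.7%, 48.9% and 46.8%. The adult sham library enters both adult injury and the sham comparison, and each other library also enters 2 comparisons, so these are not independent of each other.

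The cartilage label was checked against its markers. All 8 chondrocyte markers, among them Col2a1, Acan and Sox9, were at 1 FPKM or more in every library, and Col2a1, the main fibril collagen of cartilage, was at 9349 and 7903 FPKM in the sham and injured libraries of young mice and at 3173 and 3750 FPKM in those of adult mice. The summed FPKM of the chondrocyte markers was 18524, 16996, 8213 and 8389 in the same order. That of 6 hypertrophic chondrocyte markers was 907.0, 1595, 5439 and 7888. That of 6 osteoblast and osteocyte markers was 394.3, 833.3, 973.7 and 1529. Between the sham libraries, most of the higher adult sum of the hypertrophic list came from Ibsp (log2 ratio 3.48) and Alpl (3.44). Ihh (2.30) also passed 2-fold there, whereas Col10a1 (0.44), Pth1r (0.23) and Mmp13 (−0.25) did not. Between the injured libraries Col10a1 passed it too (3.01). Other cells were also represented. The 5 macrophage markers summed to 163.0, 1470, 228.5 and 1273 FPKM, the 5 neutrophil markers to 1064, 2181, 1445 and 1720, the 4 erythroid markers to 1255, 2293, 497.6 and 132.9, and the 5 skeletal muscle markers to 477.0, 480.2, 1107 and 326.2. The 4 superficial zone markers summed to 2220, 540.7, 5690 and 3500, the 6 fibroblast and synovium markers to 627.9, 850.3, 346.2 and 888.2, and the 4 endothelial markers to 12.3, 57.2, 14.5 and 50.8. No defining marker of these lists was at 0 in any library. The part of these cells in the results below was not tested, and in pooled tissue fewer cells of a type and less RNA per cell cannot be told apart.

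Matn1 and Matn3, the matrilins of cartilage, were abundant in young cartilage and at 16.8 FPKM or less in adult cartilage. Matn1 (chromosome 4, 130944385 to 130955476, GRCm38.p6, equal to mm10, plus strand) was at 1661 and 823.4 FPKM in the sham and injured libraries of young mice and at 2.65 and 16.8 FPKM in those of adult mice. It was the 35th most abundant gene of young sham cartilage and ranked 9039 in adult sham cartilage. Matn3 (chromosome 12, 8947929 to 8972028, plus strand) was at 391.8 and 355.8 FPKM in the sham and injured libraries of young mice and at 2.30 and 1.48 FPKM in those of adult mice. For both genes the adult level was far below the young one, both in sham and in injured cartilage. Neither gene shared any 31-base word of its transcripts with another annotated gene, and neither overlapped another annotated gene.

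The log2 ratio of adult against young sham cartilage was −8.83 for Matn1 and −6.90 for Matn3. Matn1 had the second lowest and Matn3 the fourth lowest of the 18181 ratios. In the comparison of the injured libraries, which does not use the adult sham library, the ratio was −5.53 for Matn1 and −7.17 for Matn3, the fifth lowest and the lowest of all genes tested. Under all 4 rescalings of the libraries the sham ratio of Matn1 stayed between −9.07 and −8.37 and that of Matn3 between −7.16 and −6.54. With 5 FPKM added in place of 1 they were −7.77 and −5.76.

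The 250 bases before the transcript start of Matn1 and Matn3, the pair with the steepest difference between the ages, are given here from the RefSeq promoter table of GRCm38.p6, which held windows for Matn1, Matn3, Matn4 and Ucma. The window of Matn1 is chr4:130944135-130944384 and that of Matn3 is chr12:8947679-8947928, both on the plus strand and written 5′ to 3′. Capitals mark matches on either strand to CCAAT or to the GC box GGGCGG.
Matn1: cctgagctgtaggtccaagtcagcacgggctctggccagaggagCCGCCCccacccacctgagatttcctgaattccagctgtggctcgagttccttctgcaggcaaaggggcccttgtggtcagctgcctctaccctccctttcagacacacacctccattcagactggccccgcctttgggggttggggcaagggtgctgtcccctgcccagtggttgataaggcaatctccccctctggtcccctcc
Matn3: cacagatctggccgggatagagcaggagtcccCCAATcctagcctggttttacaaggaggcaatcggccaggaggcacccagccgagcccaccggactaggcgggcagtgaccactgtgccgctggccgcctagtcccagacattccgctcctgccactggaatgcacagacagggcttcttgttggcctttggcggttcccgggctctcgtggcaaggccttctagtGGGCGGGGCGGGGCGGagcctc
Matn1 held 1 GC box, on the opposite strand, beginning 206 bases before the start. Matn3 held CCAAT 218 bases before the start and 3 GC boxes that overlap each other, 22, 17 and 12 bases before it. Of all 32851 promoter windows, 32.7% held GGGCGG and 33.8% held CCAAT, so both motifs are common. Neither window held the TATA box TATAAA, found in 12.4% of windows, nor the Sox sites ACAAAG (16.5%) and ACAATG (10.7%). These searches describe the letters of the windows only. The G and C content was 62.0% for Matn1 and 65.2% for Matn3, and the median of all windows was 52.4%.

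After injury Matn1 changed in opposite directions at the 2 ages. In young cartilage its level fell from 1661 to 823.4 FPKM, a log2 ratio of −1.01 that lay just past the threshold, and in adult cartilage it rose from 2.65 to 16.8 FPKM, a log2 ratio of 2.28. The adult injured level was still 49.1 times below that of young injured cartilage. These opposite directions were among the values that chose the family and are not evidence beyond themselves. They had the same sign under each of the alternative scalings and pseudocounts, from −1.13 to −1.01 in young and from 1.51 to 2.62 in adult mice. Matn3 did not follow Matn1, its log2 ratios being −0.14 at the young and −0.41 at the adult age, where its levels of 2.30 and 1.48 FPKM are a 1.56-fold difference before 1 FPKM is added. The quotient of Matn1 to Matn3 in FPKM was 4.24 and 2.31 in the sham and injured libraries of young mice and 1.15 and 11.4 in those of adult mice.

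Matn4 (chromosome 2, 164389393 to 164405160, minus strand) was at 26.2 and 28.8 FPKM in the sham and injured libraries of young mice and at 3.76 and 13.00 FPKM in those of adult mice. The adult sham library was the low one. Injury gave a log2 ratio of 0.13 at the young and 1.56 at the adult age, so that Matn1 and Matn4 were the 2 genes of the 7 called higher in adult injured against adult sham cartilage, where 6.90% of all genes were. Adult against young cartilage gave −2.51 in sham and −1.09 in injured cartilage, and the second value was −0.94 under the scaling that moved it most, short of 2-fold. Matn4 overlaps Rbpjl on the other strand, which stayed at 0.420 FPKM or less in all 4 libraries, and 1.81% of its 31-base words occur in another gene.

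Matn2 (chromosome 15, 34306681 to 34436242, plus strand) was the most even of the 7 genes. It was at 9.99 and 9.87 FPKM in the sham and injured libraries of young mice and at 13.9 and 10.3 FPKM in those of adult mice, and its highest value was 1.41 times its lowest. It overlaps 9430069I07Rik on the other strand, which was listed at 0 in every library, and 3.04% of its 31-base words occur in another gene. None of its 4 log2 ratios passed 2-fold, and the values were −0.02 and −0.40 for injury in young and adult mice and 0.44 and 0.05 for adult against young sham and injured cartilage. Matn2 was therefore the lowest of the 4 matrilins in both young libraries and the highest of them in adult sham cartilage. The quotient of Matn4 to Matn2 was 2.62 and 2.91 in the sham and injured libraries of young mice and 0.271 and 1.27 in those of adult mice.

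Comp was the only gene of the family called higher in adult cartilage. Comp (chromosome 8, 70373548 to 70382066, plus strand) was at 1324 and 1984 FPKM in the sham and injured libraries of young mice and at 7203 and 4611 FPKM in those of adult mice. Comp was higher in adult than in young cartilage, both sham and injured. It ranked 50th, 23rd, 7th and 9th among all genes in the same order. The log2 ratio of adult against young cartilage was 2.44 in sham and 1.22 in injured cartilage, and under the 4 rescalings of the libraries it stayed between 2.31 and 2.88 for sham and between 1.21 and 1.40 for injured cartilage. After injury the level went from 1324 to 1984 FPKM in young mice, a log2 ratio of 0.58, and from 7203 to 4611 FPKM in adult mice, a log2 ratio of −0.64. Neither passed 2-fold.

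**Figure D2:**
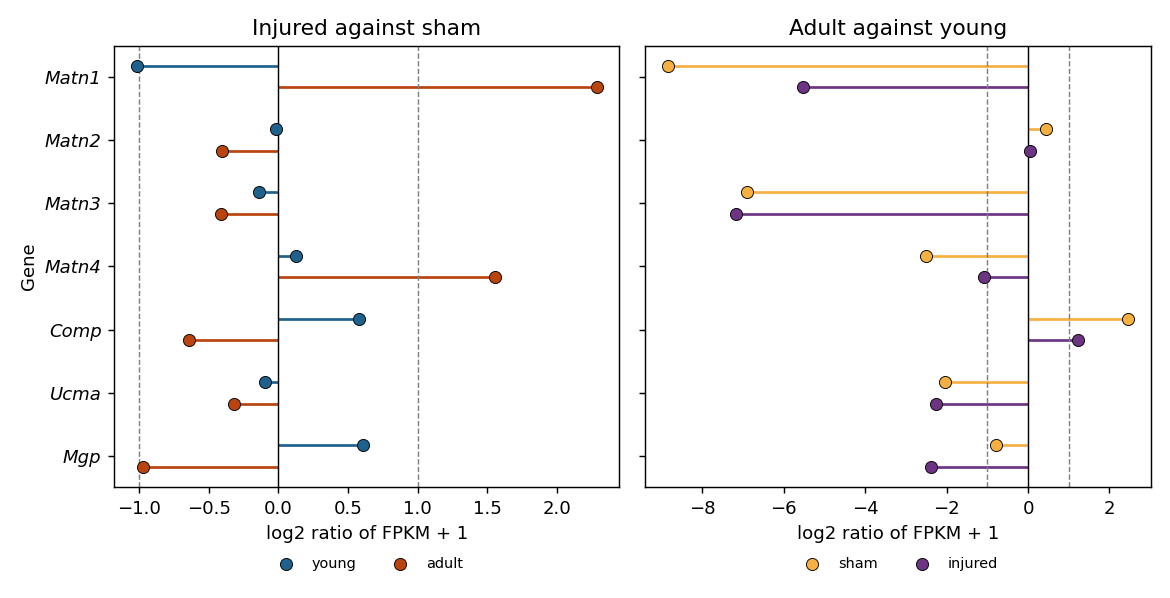
log2 ratio of FPKM + 1 of each gene for injured against sham cartilage at each age (left) and for adult against young cartilage in sham and in injured libraries (right), with dashed lines at 2-fold. Matn1 moves to −1.01 in young and 2.28 in adult mice, and on the right Comp alone passes 2-fold upward while Matn1 and Matn3 reach −5.53 or lower.

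Tendon and ligament also express Comp, and their markers were therefore set beside it. Tnmd, a marker of tendon, was at 2.04, 1.82, 0.0490 and 0.588 FPKM (young sham and injured, then adult sham and injured), and Scx, a tendon transcription factor, was at 2.97, 9.75, 5.18 and 3.98 FPKM. The summed FPKM of the 6 tendon and ligament markers was 1654, 794.7, 1760 and 543.0 and came mostly from Fmod, which chondrocytes also express, and in adult sham cartilage also from Thbs4. Skeletal muscle markers were highest in adult sham cartilage, as Comp was. Their part in the level of Comp was not tested.

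Mgp was the most abundant gene of both young libraries. Mgp (chromosome 6, 136872435 to 136875823, minus strand) was at 11420 and 17434 FPKM in the sham and injured libraries of young mice and at 6601 and 3371 FPKM in those of adult mice, or 2.32%, 3.27%, 1.31% and 0.717% of all FPKM. It ranked 8th in adult sham and 14th in adult injured cartilage. Mgp was higher in young than in adult cartilage, both sham and injured. Injury gave a log2 ratio of 0.61 at the young and −0.97 at the adult age, the second value just inside the threshold. Under the 4 rescalings the adult value lay between −1.31 (median-of-ratios) and −0.76 (quantile), past 2-fold in 2 of them. Adult against young gave −0.79 in sham cartilage, not called, and −2.37 in injured cartilage. Under the 4 rescalings the sham value lay between −1.62, called after quantile normalization, and −0.35, after median-of-ratios scaling. Mgp is also made by vascular smooth muscle, whose 5 markers summed to 115.5 and 60.9 FPKM in the sham and injured libraries of young mice and to 28.8 and 33.7 FPKM in those of adult mice. Most of the young sum was Acta2, at 95.7 and 44.6 FPKM, which was at 7.73 and 15.2 FPKM in adult cartilage and so was higher in the young libraries, as Mgp was. Tagln lay between 7.88 and 14.9 FPKM and Rgs5 between 5.06 and 9.89 FPKM, and Myh11 and Cnn1 were at 0.559 FPKM or less in all 4 libraries. The part of these cells in the level of Mgp was not tested.

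Ucma (chromosome 2, 4976122 to 4985748, plus strand) was at 573.2 and 536.9 FPKM in the sham and injured libraries of young mice and at 139.1 and 111.6 FPKM in those of adult mice. Ucma too was higher in young than in adult cartilage, both sham and injured. The log2 ratio of adult against young was −2.04 in sham and −2.26 in injured cartilage, and the injury ratios were −0.09 at the young and −0.31 at the adult age. Ucma, Mgp and Comp shared no 31-base word with another gene and overlapped none.

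Counted over the family, adult against young sham cartilage gave 4 genes called lower (Matn1, Matn3, Matn4 and Ucma) and 1 called higher (Comp), with 10.6% and 2.66% of all genes called in those directions. Adult against young injured cartilage gave 5 called lower, with Mgp as the addition, and 1 called higher, beside 3.09% and 1.80%. After injury 1 of 7 was called lower in young mice (Matn1), beside 1.27% of all genes, and none higher, beside 4.57%. In adult mice 2 of 7 were called higher and none lower, beside 6.90% and 1.46%. Over the 7 genes the injury ratios had medians of −0.02 (young) and −0.40 (adult), −2.04 for adult against young sham and −2.26 for adult against young injured cartilage, where the medians of all genes tested were 0.00, 0.14, −0.15 and −0.04. The choice of the genes used these libraries, and nothing is read from these counts about the family as such.

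**Figure D3:**
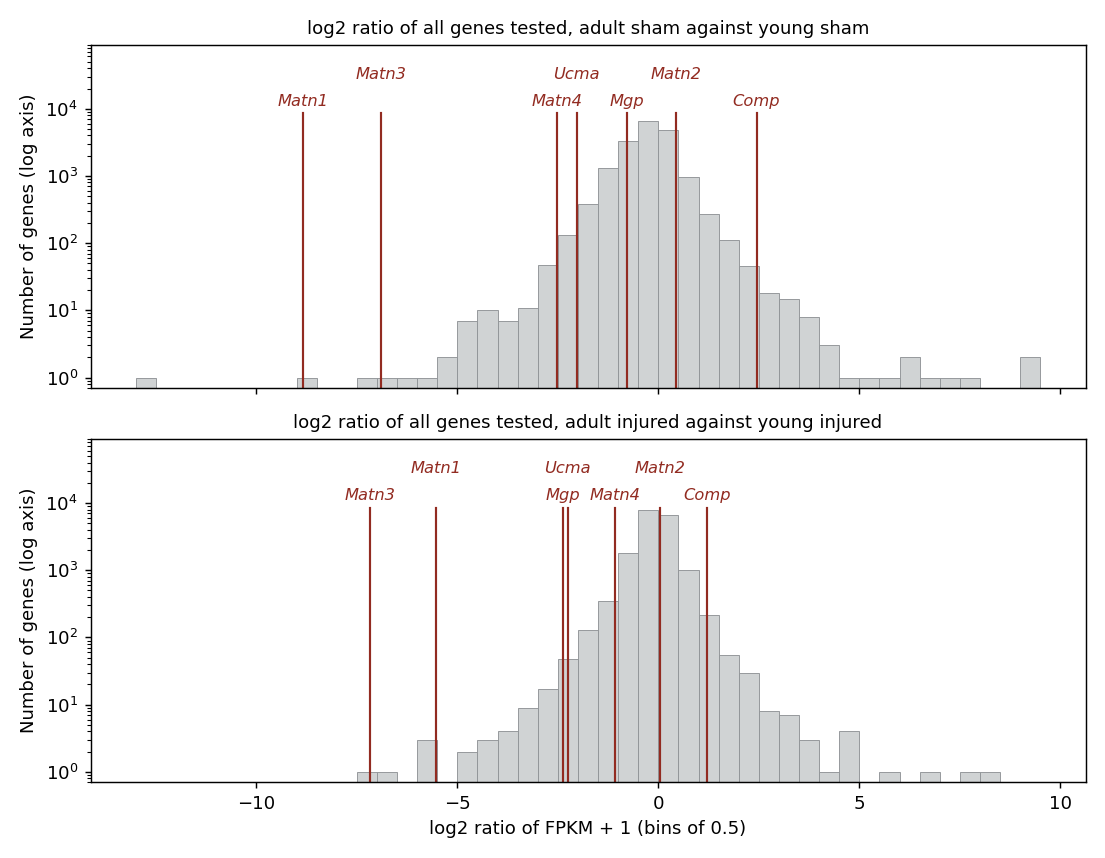
Distribution of the log2 ratios of all 18181 genes tested (grey bars, bins of 0.5, number of genes on a log axis) for adult against young cartilage, in sham (top) and injured (bottom) libraries, with the 7 genes as red lines. Matn1 and Matn3 lie in the far lower tail of both panels, and Comp lies at 2.44 and 1.22.

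Quotients of FPKM within a library are unchanged when a library is multiplied by 1 factor, though not under quantile normalization. They were taken against Col2a1, which itself had a log2 ratio of −1.56 in adult against young sham cartilage. Matn1 was 17.8% and 10.4% of Col2a1 in the sham and injured libraries of young mice and 0.0836% and 0.448% in those of adult mice. Matn3 was 4.19%, 4.50%, 0.0724% and 0.0393% in the same order. Both genes were therefore lower in adult cartilage relative to Col2a1 as well. Ucma was 6.13%, 6.79%, 4.38% and 2.98% of Col2a1, a spread of 2.28 times between the highest and the lowest library, against 5.14 times in FPKM. Comp was 14.2%, 25.1%, 227.0% and 123.0% of Col2a1. Mgp was 122.1%, 220.6%, 208.1% and 89.9%. Here the adult value was above the young one in sham and below it in injured cartilage, unlike in FPKM. Comp relative to Mgp had quotients of 0.116 in young sham and 0.114 in young injured cartilage and of 1.09 and 1.37 for the adult pair.

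**Figure D4:**
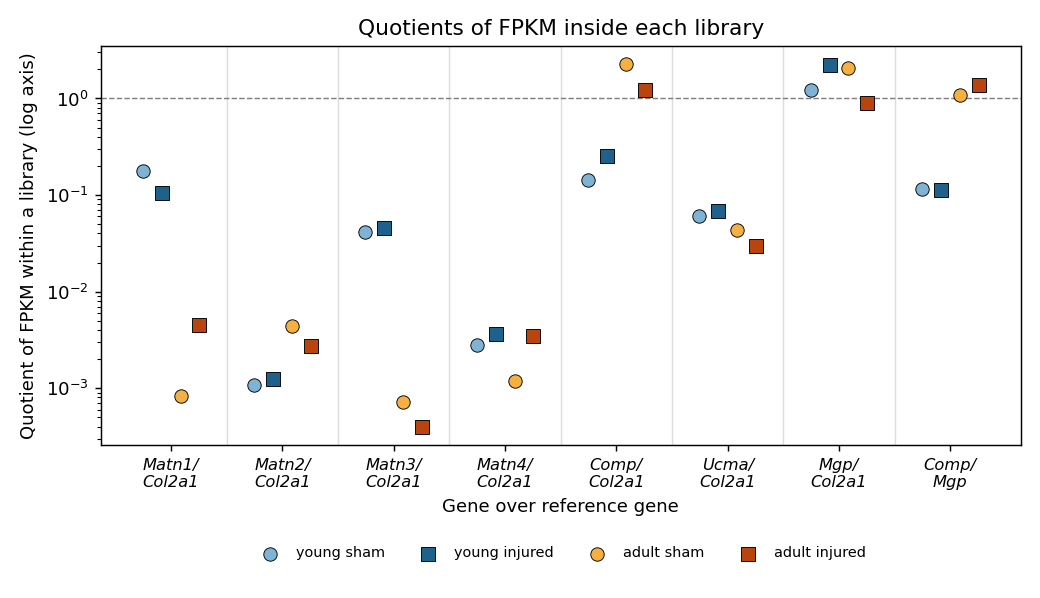
Quotient of FPKM within each library, on a log axis, for each of the 7 genes over Col2a1 and for Comp over Mgp (symbols as in the plot of levels; dashed line, equal FPKM). Comp over Mgp is 0.116 and 0.114 in the young libraries and 1.09 and 1.37 in the adult libraries. Mgp over Col2a1 is higher in adult than in young cartilage in sham and lower in injured libraries.

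The molecules that matrilins and COMP bind were examined next. Of 15 binding partners, 3 rose at least 2-fold and 1 fell in young cartilage after injury, beside 4.57% and 1.27% of all genes. In adult cartilage 6 rose and 1 fell, beside 6.90% and 1.46%. Fn1, which encodes fibronectin, went up from 226.3 to 1869 FPKM at the young age and from 441.8 to 3803 at the adult age. Fmod, which encodes the collagen-binding proteoglycan fibromodulin, fell from 1590 to 757.6 FPKM and from 1057 to 444.2 FPKM. Dcn and Lum, which encode the related proteoglycans decorin and lumican, were the others that rose at both ages. Col9a1, Col9a2 and Acan passed 2-fold upward in adult cartilage, and the difference between the ages was not tested. The call of Col9a2 (1.06) was lost under 3 of the 4 rescalings, with 0.72 as the lowest value. Collagen IX is a ligand of matrilin-3 and COMP on the fibril surface. Its gene Col9a1 was at 955.4 and 687.2 FPKM in the sham and injured libraries of young mice and at 40.9 and 161.5 FPKM in those of adult mice. Like Matn1 and Matn4 it was lowest in adult sham cartilage and higher after injury there. Between adult and young sham cartilage 6 of the 15 partners were called lower and none higher, beside 10.6% and 2.66% of all genes. Under 3 of the 4 rescalings 5 were lower and 1 higher, since Col9a3 (−1.18) lost its call and Fn1 (0.96) gained one. The median log2 ratio of the list was −0.09, 0.68, −0.83 and −0.45 in the 4 comparisons, and the 0.68 for injury in adult mice was 0.34 after median-of-ratios scaling.

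Among the other thrombospondins, Thbs4 was higher in adult cartilage, as Comp was, and lower after injury at both ages. Thbs4 was at 55.9 and 21.5 FPKM in the sham and injured libraries of young mice and at 695.5 and 91.8 FPKM in those of adult mice. Its log2 ratio of adult against young sham cartilage was 3.61, and its injury ratios were −1.34 and −2.91. Thbs1 fell at both ages, from 412.0 to 119.9 FPKM and from 470.0 to 55.8 FPKM. Thbs3 fell past 2-fold in adult mice, from 81.7 to 33.9 FPKM, and was at 81.8 and 46.9 FPKM in young mice, and Thbs2 did not pass 2-fold in any comparison. The quotient of Comp to Thbs4 was 23.7 and 92.3 in the sham and injured libraries of young mice and 10.4 and 50.3 in those of adult mice, higher after injury at each age.

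Of 11 proteases reported to cleave COMP or matrilins, 10 were above 0, and 5 rose at least 2-fold after injury at each age while none fell. Over all genes 4.57% rose at the young and 6.90% at the adult age, and 1.27% and 1.46% fell. The same 5 genes passed in both, Adamts4, Mmp3, Mmp9, Mmp13 and Mmp19. Mmp3, the stromelysin, went up from 4.99 to 151.5 FPKM at the young age and from 41.2 to 673.4 at the adult age. Mmp13, the main collagenase of mouse cartilage, went up from 25.3 to 473.7 and from 21.2 to 518.2 FPKM. Adamts4 reached only 2.84 and 2.77 FPKM. Adamts7 and Adamts12, which are reported to cleave COMP, stayed at 2.40 FPKM or less in all 4 libraries. Htra1, a serine protease, was called higher in adult than in young cartilage, at 284.1 against 92.5 FPKM in sham and 195.7 against 84.6 FPKM in injured libraries. Mmp9 is also a product of neutrophils and macrophages. All 5 macrophage markers rose past 2-fold after injury at each age, whereas 2 of 5 neutrophil markers (S100a8 and S100a9) did so at the young age and none at the adult age. Their part in the level of Mmp9 was not tested.

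The genes of the vitamin K cycle, which carboxylates MGP and UCMA, were present in all libraries. Vkorc1, the reductase that regenerates vitamin K, was at 522.2 and 561.4 FPKM in the sham and injured libraries of young mice and at 311.2 and 261.2 FPKM in those of adult mice. Ggcx, the carboxylase itself, was at 50.5, 36.8, 22.2 and 24.0 FPKM. Between adult and young sham cartilage 3 of the 7 genes were called lower (Ggcx, Vkorc1l1 and Nqo1) and 1 higher (Aifm2). The shares of all genes were 10.6% and 2.66%. The list median was −0.89. After median-of-ratios scaling the median was −0.46, and Ggcx (−0.73) and Vkorc1l1 (−0.99) were no longer called. After injury 4.57% of all genes were called higher in young and 6.90% in adult mice. None of the 7 passed 2-fold in young mice. In adult mice 1 gene, Nqo1, passed it, from 8.83 to 21.3 FPKM, a log2 ratio of 1.18. Median-of-ratios scaling (0.87) and quantile normalization (0.91) removed this call, and both TPM scales kept it and added Vkorc1l1 (0.94, and 1.16 on the TPM scale).

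Of the other genes of Gla proteins, 14 were above 0. In adult against young sham cartilage 2 of them were called higher (Bglap and Bglap2) and 1 lower (Prrg1), beside 2.66% and 10.6% of all genes. The other 11 were not called, of which Gas6 (0.89) was called higher under 3 of the 4 rescalings. In adult against young injured cartilage 2 were called higher and none lower, beside 1.80% and 3.09%. Bglap, which encodes the bone protein osteocalcin, was at 96.8 and 101.7 FPKM in the sham and injured libraries of young mice and at 449.3 and 453.1 FPKM in those of adult mice. Its neighbour and close copy Bglap2 was at 59.0, 68.6, 241.3 and 238.8 FPKM, and the division of reads between these 2 genes is uncertain. Prrg1, which encodes a membrane protein, was at 2.85 and 2.26 FPKM in the sham and injured libraries of young mice and at 0.495 and 0.885 FPKM in those of adult mice. Postn, F7 and F10 rose past 2-fold after injury at both ages, and no gene of the list was called lower. Over all genes 4.57% were higher and 1.27% lower at the young age, and 6.90% and 1.46% at the adult age. Prrg3, at 1.67 FPKM in young sham and 0.528 in young injured libraries, was called lower on the TPM scale (−1.15) and on the TPM scale without the 10 most abundant genes (−1.18). The adult call of F7 (1.09) was lost after quantile normalization (0.86) and, by a narrow margin, after median-of-ratios scaling. Postn, which encodes the matrix protein periostin, went up from 10.9 to 60.9 and from 13.8 to 56.8 FPKM. The coagulation factor gene F10 went from 0.156 to 3.10 FPKM at the young age and from 0.330 to 3.44 at the adult age.

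The regulators of mineralization, the process that MGP restrains, were examined as a list of 13 genes. Of these, 6 were called higher, 1 (Smpd3) lower and 6 not called in adult against young sham cartilage. The shares of all genes were 2.66% higher and 10.6% lower. In adult against young injured cartilage 6 were called higher, beside 1.80% of all genes, and 7 were not called. The rescalings called 7 or 8 higher there. Ibsp, which encodes bone sialoprotein, was at 368.9 and 604.9 FPKM in the sham and injured libraries of young mice and at 4136 and 4218 FPKM in those of adult mice. Alpl, the tissue-nonspecific alkaline phosphatase, was at 61.3, 98.8, 676.4 and 536.8 FPKM. Ank and Enpp1, which raise extracellular pyrophosphate, an inhibitor of mineral growth, had log2 ratios of 1.10 and 0.80 in adult against young sham cartilage. Spp1, the gene of osteopontin, and Dmp1 rose past 2-fold after injury in young mice, beside 4.57% of all genes. On the TPM scale Dmp1 lost its call and Ank (−1.07) and Ahsg (−1.19) were called lower. Ahsg was near the floor. Its level was 0.632 and 0 FPKM in sham and injured cartilage of young mice and 0.446 and 0 FPKM in adult mice. In adult mice no gene of the list passed 2-fold upward or downward, beside 6.90% and 1.46% of all genes, but each of the 4 rescalings called 1 gene. These were Slc20a1 downward after median-of-ratios scaling (−1.01), Spp1 upward after quantile normalization (1.29), Smpd3 upward on the TPM scale (1.02) and Ahsg downward on the TPM scale without the 10 most abundant genes (−1.14). The call of Smpd3 between the sham libraries (−1.07) was lost under 3 of the 4 rescalings. Bmp2 and Bmp4, ligands that MGP binds, were at 11.4 FPKM or less in every library, and Bmp4 was called lower after injury in young mice, from 10.1 to 2.95 FPKM. Bmp2 went from 6.59 to 2.82 FPKM there, a log2 ratio of −0.99, and was called lower under 3 of the 4 rescalings. In adult mice the ratio of Bmp4 was −0.86, called lower under 3 of the 4.

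Sox9, Sox5 and Sox6 encode transcription factors that drive cartilage matrix genes including Matn1. Their part in the level of Matn1 was not tested. Sox9 was at 42.3 and 25.4 FPKM in the sham and injured libraries of young mice and at 31.2 and 31.4 FPKM in those of adult mice. The log2 ratio of adult against young sham cartilage was −0.43 for Sox9, −1.10 for Sox5 and −1.05 for Sox6, and after median-of-ratios scaling those of Sox5 and Sox6 were −0.72 and −0.66. After injury all 3 genes had log2 ratios between −0.78 and −0.68 in young mice and between 0.01 and 0.66 in adult mice, and none passed 2-fold. The median of the 3 in adult mice was 0.14 and turned to −0.16 after median-of-ratios scaling and to −0.17 after quantile normalization.

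Finally, the genes with the most similar pattern over the 4 libraries were found, by the Euclidean distance between profiles of log2(FPKM + 1), each centred on its own mean, over the 8055 genes whose mean reached 5 FPKM. For Matn3 the nearest was Epyc, which encodes the growth cartilage proteoglycan epiphycan, at a distance of 1.09. Epyc was at 77.6 and 83.5 FPKM in the sham and injured libraries of young mice and at 0.339 in adult injured cartilage, with 0 listed for the adult sham library. For Matn1 the nearest was again Epyc, at 1.86, then Matn3, at 2.01, and Zim1, an imprinted gene, followed for both matrilins. No gene lay within 0.5 of either. For Matn4 the nearest were Fscn1 (0.11), Epb41 (0.22) and Papss2 (0.31), the last of which supplies activated sulfate for proteoglycans. For Comp they were Cx3cl1 (0.39), Tmem204 (0.41) and Scube1 (0.48). For Ucma they were the short noncoding genes DQ267102 (0.11), AF357359 (0.21) and Mir485 (0.25), and for Mgp they were Mirg (0.34), Nedd9 (0.43) and Prg2 (0.47). For Matn2 they were 2310033P09Rik, E4f1 and Rilpl2, but 1791 genes lay within 0.5 of this even profile. Within the family the closest pair was Ucma and Mgp, at 0.88, and the farthest was Matn1 and Comp, at 9.32. A profile of 4 libraries is short, and genes with like profiles are given as a description only.

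**Figure D5:**
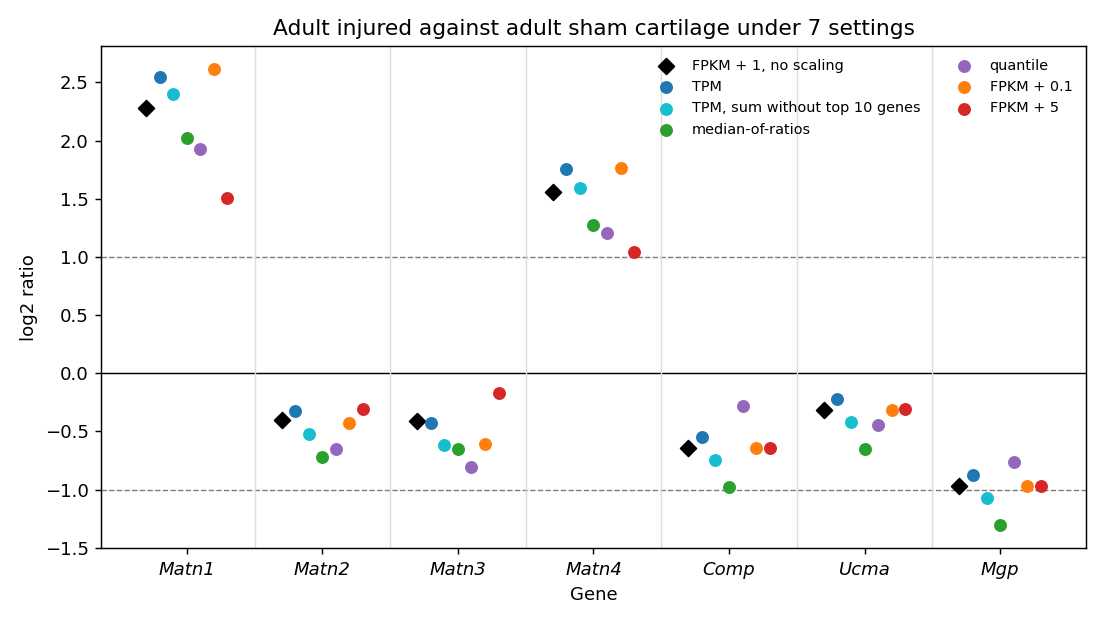
log2 ratio of each gene for adult injured against adult sham cartilage under 7 settings (black diamonds, FPKM + 1 without scaling; coloured points, other scalings and pseudocounts; dashed lines, 2-fold). Matn1 and Matn4 stay above 2-fold and the other 5 genes stay below 0 under all of them, with Mgp passing 2-fold downward under 2 of the scalings.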

How the data were processed

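Poly-A selected, strand-specific paired-end RNA libraries were sequenced, and the authors deposited FPKM for 24532 genes on mm10. The submitters' processing notes name HISAT2 2.1.0, StringTie 1.3.4d, STAR and SAMtools without their roles, and the strand setting is not given in the sources used here. Columns were matched to libraries by name. log2 ratios of FPKM + 1 were calculated for 4 comparisons over the 18181 genes detected anywhere, with no added scaling, and called at 2-fold. With 1 library per group no test was made. Members and the 20 other gene lists were chosen with earlier results of these data known. The genes named are the members, the genes of these lists and, for each member, the 3 genes nearest in profile. Cnmd and Snorc, listed under older symbols, were matched by Entrez identifier. Gene positions and promoters came from RefSeq tables of GRCm38.p6, and 31-base words and overlaps from GENCODE M21 transcripts. Alternatives were pseudocounts of 0.1 and 5, a filter of 1 FPKM, TPM with and without the 10 most abundant genes in the sum, median-of-ratios scaling, quantile normalization, and 1.5-fold and 3-fold thresholds. Scripts were tested on simulated data. Python 3.11.15, numpy 2.4.6, pandas 2.3.3 and matplotlib 3.10.9 were used.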

Additional observations from a re-analysis of the deposited data

Results flagged for a closer look

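In 3 of the 7 genes the injury ratio had opposite signs at the 2 ages. With 1 library per group this difference was not tested. For Matn1 the adult log2 ratio minus the young one was 3.30, and this opposite direction was among the values that chose the family. For Comp the difference was −1.23, from 0.58 in young and −0.64 in adult mice, and for Mgp it was −1.58, from 0.61 and −0.97. Neither gene passed 2-fold at either age. Under the alternative scalings and pseudocounts the difference lay between 2.52 and 3.68 for Matn1, between −1.55 and −1.01 for Comp and between −1.90 and −0.76 for Mgp.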

How the results depend on the processing

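No gene of the family changed the sign of its log2 ratio in any comparison under the other pseudocounts, the filter or the 4 rescalings, over 196 values, apart from Mgp in young mice after injury, whose ratio became 0 under quantile normalization because it ranked first in both libraries. A threshold of 1.5-fold gave after injury 1 higher gene in young mice and 2 lower genes in adult mice, where 2-fold gave none. A threshold of 3-fold left 0 genes lower in young and 1 higher in adult mice after injury, and 0 higher in adult against young injured cartilage. For injury in adult mice 1 gene, Mgp, became lower past 2-fold after median-of-ratios scaling, and 1, again Mgp, with TPM whose sum left out the 10 most abundant genes. The other 65 of 72 counts stayed within 1.5 times. Quantile normalization also added Mgp to the genes lower in adult against young sham cartilage, and Matn4 dropped out of those lower in adult against young injured cartilage under some scalings. Over all genes the pseudocount and the scaling both moved the number of calls: 1255 genes were higher after injury in adult mice with 1 FPKM added, 2882 with 0.1 and 434 with 5, and 1934, 3840 and 670 were lower in adult against young sham cartilage. The same counts were 802 and 932 after median-of-ratios scaling and 2009 and 2707 on the TPM scale. Of 560 list medians 30 changed sign. No paired analysis was possible because each group has 1 library, and for the same reason no library could be left out.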
